A study of Homo sapiens with 4 samples.

Results

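DEAD box (DDX) and DEAH box (DHX) proteins are enzymes that use ATP to unwind RNA or to remodel RNA bound to protein, and their mRNAs are described here in RNA immunoprecipitation libraries of the splicing factor RBM39. Members were the features of the count table whose name is DDX or DHX followed by a number and at most 1 letter, and that reached 10 counts in 2 libraries or more. Of 56 names that fit, 51 passed, 36 DDX and 15 DHX, among 19210 features of the table that passed the same minimum. The libraries come from Huh7, an established human hepatocellular carcinoma line, and there was 1 library in each of 4 groups. These were the RBM39 immunoprecipitate (IP) of cells labelled shRBM39, the input RNA of the same culture, the IP of cells labelled shControl, and the input of that culture. The labels describe transfection with a short-hairpin plasmid against RBM39, in the same words for all 4 samples, and do not say what the shControl hairpin was or whether either culture was 1 clone. No IP with a control antibody was used here, so recovery, the ratio of IP over input, cannot be told from RBM39-independent binding.

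The name DEAD or DEAH refers to the amino acids of one conserved motif of the helicase core. DEAD box proteins typically open short duplexes locally or clamp RNA, and DEAH box proteins typically move along a strand. In splicing, members of both kinds drive the rearrangements of the spliceosome one after another, and many other members act in the nucleolus on precursors of ribosomal RNA. RBM39 is an SR-like protein that binds spliceosome components and is known in liver cancer cells as a regulator of splicing. The labels ask which mRNAs are bound by RBM39 and use the hairpin as the comparison.

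The 4 libraries held 20858382 to 45812488 counts, with IPs about as deep as each other and deeper than the inputs. RBM39 itself, the target of the hairpin, stood at 370 CPM (counts scaled to a common library size with TMM factors) in the input labelled shRBM39 and 404 CPM in the shControl input, a ratio of 0.917. In the IPs it stood at 2221 CPM in the library labelled shRBM39 and 1036 CPM in the shControl library. The knockdown was therefore barely visible in input RNA, and directions refer to the libraries as labelled. The summed level of 9 hepatocyte and hepatoma markers, among them ALB, AFP and HNF4A, was 5284 CPM in the shRBM39 IP, 12559 in its input, 9245 in the shControl IP and 13502 in its input. The leukocyte markers reached 0.435 to 1.01 CPM in sum, the endothelial markers 3.81 to 8.69 CPM (PECAM1 gave most of it), the fibroblast markers 1.66 to 3.50 CPM with DCN at 0 counts in all 4 libraries, and the cholangiocyte markers 129 to 355 CPM, almost all of it SOX9, with KRT7 at 2 counts or fewer.

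The clearest pattern in these mRNAs lay between the cultures. In input RNA, 49 of the 51 members had a log2 ratio of shRBM39 over shControl above 0, and the median ratio was 0.80 on the log2 scale. The median over all 19210 features was -0.013, and over the 11173 features with at least 100 counts in all 4 libraries it was 0.047, with 54.3% of those above 0. A member was listed as higher or lower when the ratio was 2-fold or more in size and the exact 95% counting interval left out equality. By that rule 13 of 51 members (25.5%) were higher in the shRBM39 input and 0 lower, against 5.10% of all features higher and 5.74% lower, and 3.37% and 0.904% of the features with at least 100 counts in all libraries (the deeper features). With libraries scaled to total counts 8 of the 13 were listed, and DHX15, DHX9, DDX51, DDX52 and DDX39A were not. The members just outside the 2-fold line were DHX8 and DDX10, both at 0.99. The members together made up 5993 CPM of the shRBM39 input and 3156 CPM of the shControl input. The summed hepatocyte markers were lower in the shRBM39 input, with ALB at a log2 ratio of -0.42 and AFP at 0.60, and their part in the helicase values was not tested. With 1 library per group these differences have no replicate check and carry no p-value, the intervals cover counting error only, and in RNA pooled from a culture more cells with a transcript and more of it per cell cannot be told apart.

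The promoters of the members at the ends of this ranking are shown because most of these mRNAs were higher together in one input. Each line is the 120 bases before the annotated start (RefSeq, GRCh38.p14, gene strand, 5′ to 3′). DDX27 (chr20:49219296-49219415, plus strand), DDX23 (chr12:48852164-48852283, minus strand) and DDX24 (chr14:94081203-94081322, minus strand) had the highest ratios, and DDX59 (chr1:200669908-200670027, minus strand) had the lowest. Capitals mark GC boxes (GGGCGG or its complement CCGCCC) and CCAAT boxes (CCAAT or ATTGG), and the GC box stands in all 4, DDX59 included.
DDX27: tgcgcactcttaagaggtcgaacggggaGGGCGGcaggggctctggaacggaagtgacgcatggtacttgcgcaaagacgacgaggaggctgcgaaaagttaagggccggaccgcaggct
DDX23: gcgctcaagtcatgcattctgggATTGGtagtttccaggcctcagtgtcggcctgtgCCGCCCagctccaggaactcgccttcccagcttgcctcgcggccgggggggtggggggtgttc
DDX24: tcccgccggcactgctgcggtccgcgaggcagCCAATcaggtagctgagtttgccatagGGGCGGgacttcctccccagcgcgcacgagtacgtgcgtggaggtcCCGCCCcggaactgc
DDX59: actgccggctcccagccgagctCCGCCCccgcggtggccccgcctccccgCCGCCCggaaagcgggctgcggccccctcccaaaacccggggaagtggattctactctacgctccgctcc

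Short motifs were counted in the 250 bases before the start of the 46 members with a RefSeq promoter and of 27305 promoters of the same length, on both strands. Each motif was searched by itself, so matches of different motifs may overlap, and the motifs were chosen with the expression values known. The GC box GGGCGG was present in 11 of the 12 promoters of members listed as higher in input, in 16 of the other 34 (47.1%) and in 42.3% of all promoters. The CCAAT box (CCAAT) was present in 6 of 12, 14 of 34 and 33.0%. The ETS motif CCGGAAG was present in 3 of 12, in 12 of 34 (35.3%) and in 8.82% of all promoters, so that 32.6% of member promoters held it. The E-box CACGTG was present in 15.2% of member promoters and 6.49% of all, the palindromic NRF1 motif in 4.35% and 1.13%, TATAAA in 4.35% and 11.1%, and the RFX half-site GTTGCC in 6.52% and 10.1%. These windows were rich in G and C, with a median of 63.2% for the 12 members listed as higher, 60.2% for the other 34 and 58% for all promoters, and a match describes the letters only.

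**Figure D1:**
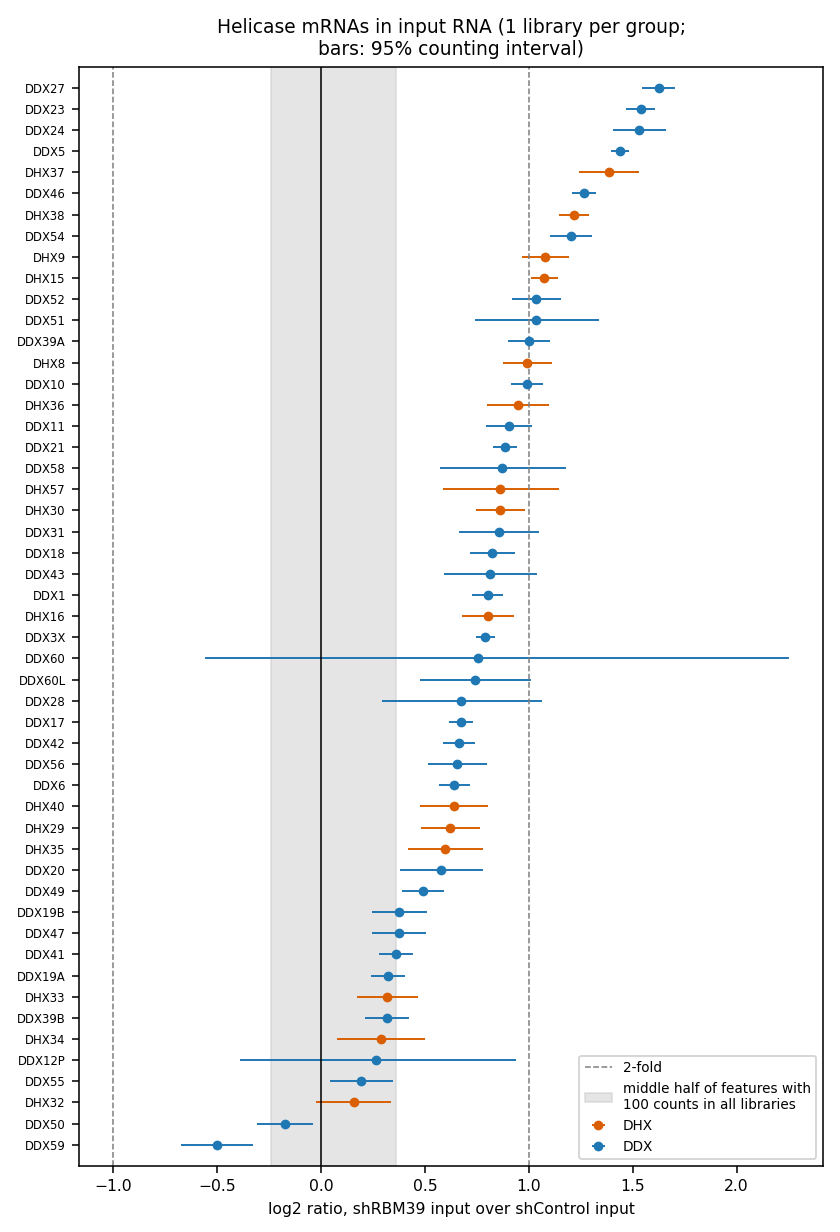
Log2 ratio of shRBM39 input over shControl input (x axis) for the 51 helicase mRNAs (rows), DDX in blue and DHX in orange, with 95% counting intervals and 1 library per group. The grey band is the interquartile range of the features with at least 100 counts in all libraries, and 49 members lie above 0, from DDX27 at 1.62 down to DDX59 at -0.50.

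Among the 7 DEAD box helicases of the spliceosome list, DDX23, DDX5 and DDX46 were higher in the shRBM39 input. DDX23, which helps exchange U1 for U6 at the 5′ splice site, had 19147 counts (463 CPM) in the shRBM39 IP, 6740 (310 CPM) in the shRBM39 input, 5696 (126 CPM) in the shControl IP and 2299 (107 CPM) in the shControl input. Both shRBM39 libraries were thus above both shControl libraries, and the input ratio was 2.90-fold (log2 1.54, 1.47 to 1.61). DDX5, an abundant helicase of splicing and of transcription, had 1001 CPM in the shRBM39 IP and 696 in its input, against 289 in the shControl IP and 256 in its input. The input ratio of DDX5 was 2.71-fold (log2 1.44, 1.39 to 1.48). DDX46, which acts with U2 snRNP at the branch site, stood at 379 CPM in the shRBM39 input and 158 CPM in the shControl input (log2 1.26, 1.21 to 1.32).

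The other 4 of these 7 differed less between the inputs. DDX17, the close paralog of DDX5, had an input log2 ratio of 0.67 (0.62 to 0.73), with 301 CPM in the shRBM39 input and 189 CPM in the shControl input. DDX42, which binds the SF3B1 subunit of U2 snRNP, stood at 0.66, DDX41 at 0.36 and DDX39B, an ATPase of spliceosome assembly and of mRNA export, at 0.32. All 7 were above 0, and none of these 4 reached 2-fold. DDX39B overlaps a read-through transcript with ATP6V1G2 and small nucleolar RNA genes, and DDX5 overlaps CEP95, so reads of these 2 members may be shared with neighbours.

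The 5 DEAH box helicases of the spliceosome ran from 0.60 to 1.22 in input, with DHX38 and DHX15 listed as higher. DHX38, which remodels the spliceosome before the second step of splicing, had 18875 counts (456 CPM) in the shRBM39 IP, 5412 (249 CPM) in the shRBM39 input, 7460 (165 CPM) in the shControl IP and 2307 (107 CPM) in the shControl input. The input ratio was 2.32-fold (log2 1.22, 1.15 to 1.29). DHX38 overlaps TXNL4B in the annotation. DHX15, which takes spliceosomes apart at the end of splicing, stood at 271 CPM in the shRBM39 input and 129 CPM in the shControl input (log2 1.07, 1.01 to 1.14). DHX8, which releases the spliced mRNA, fell just short of 2-fold (log2 0.99, 0.88 to 1.11), DHX16, which activates the spliceosome before the first step, stood at 0.80 (0.68 to 0.93) and DHX35 at 0.60 (0.42 to 0.78).

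Of the 16 helicases of ribosome biogenesis, 6 were higher in the shRBM39 input: DDX27, DDX24, DHX37, DDX54, DDX52 and DDX51. DDX27, a nucleolar helicase of rRNA processing, had 342 CPM in the shRBM39 IP and 245 in its input, against 118 in the shControl IP and 79.5 in its input. Its input ratio of 3.08-fold (log2 1.62, 1.55 to 1.70) was the highest of the 51 members. DDX24, another nucleolar helicase, stood at 93.5 CPM in the shRBM39 input and 32.3 CPM in the shControl input (log2 1.53, 1.41 to 1.66), and its gene overlaps OTUB2. DHX37, which acts on the small ribosomal subunit precursor, stood at 66.3 CPM and 25.3 CPM in the same inputs (log2 1.39, 1.24 to 1.53).

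DDX54, a nucleolar DEAD box protein, had an input log2 ratio of 1.20 (1.10 to 1.302), DDX52 of 1.04 (0.92 to 1.15) and DDX51 of 1.03 (0.74 to 1.34). DDX51 was one of the less deeply counted members, with 292 counts in the shRBM39 input and 141 in the shControl input. DDX10 (0.99), DDX21 (0.89), DDX31 (0.86) and DDX18 (0.82) lay just under 2-fold. DDX56 (0.66), DDX49 (0.49), DDX47 (0.37), DHX33 (0.32) and DDX55 (0.19) differed less. DDX50, the paralog and chromosomal neighbour of DDX21, was the only member of this list with a ratio below 0, at -0.17 (-0.31 to -0.04). DDX21 and DDX50 thus differed in direction between the inputs although their genes lie beside each other on chromosome 10. The list median was 0.87, beside 0.67 for the DEAD box and 0.99 for the DEAH box spliceosome lists.

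**Figure D2:**
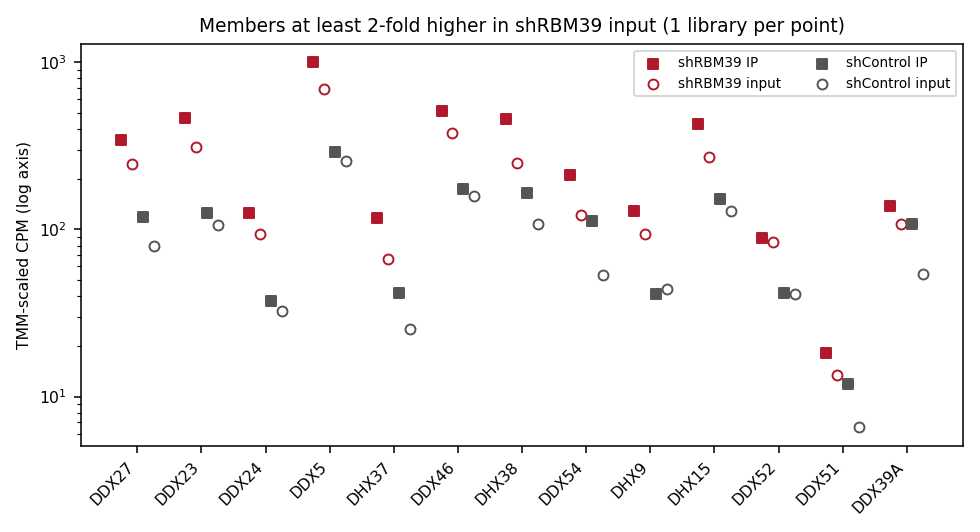
TMM-scaled CPM (log axis) of the 13 members at least 2-fold higher in the shRBM39 input, in each of the 4 libraries (filled squares IP, open circles input, red shRBM39, grey shControl). The open red circle lies above the open grey circle for each of the 13, and levels are to be compared within a gene, since they are not per length.

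Members with roles in the cytoplasm were above 0 in all 7 cases, and none was listed. DDX3X, which aids translation of mRNAs with structured leaders, stood at 522 CPM in the shRBM39 input and 302 CPM in the shControl input (log2 0.79, 0.75 to 0.84). DHX36, which unwinds G-quadruplexes, had the highest ratio of this list (0.95, 0.80 to 1.10), ahead of DDX1, a part of the tRNA ligase complex (0.80), DDX6, a partner of decapping factors in P-bodies (0.64), and DHX29, a helicase of translation initiation (0.62). DDX20, of the SMN complex, stood at 0.58 and DHX34, which acts in nonsense-mediated decay, at 0.29 (0.08 to 0.50). Among export factors DDX39A, the paralog of DDX39B, was listed at the threshold itself (2.001-fold, log2 interval 0.90 to 1.10), with 108 CPM in the shRBM39 input and 54.1 CPM in the shControl input. DDX19A (0.32) and DDX19B (0.38), near-identical neighbours whose reads the counting could split, were not listed.

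DHX9, a nuclear RNA helicase of the DEAH kind, was higher in the shRBM39 input at 93.4 CPM, against 44.2 CPM in the shControl input (log2 1.08, 0.97 to 1.19). The mitochondrial ribosome assembly factors DHX30 (0.86) and DDX28 (0.67) were not listed. DDX58, the RIG-I sensor of viral RNA, stood at 0.87 (0.57 to 1.18) and the interferon-induced DDX60L at 0.74 (0.48 to 1.01). DDX43, known from testis and tumours, stood at 0.81 (0.59 to 1.04). The DNA helicase DDX11 (0.90), DHX57 (0.86) and DHX40 (0.64) were above 0 and not listed. DDX59 had the lowest ratio, and with DDX50 it was one of only 2 members whose interval lay below equality, with 21.4 CPM in the shRBM39 input and 30.2 CPM in the shControl input (log2 -0.50, -0.67 to -0.32). DHX32, at 0.16 (-0.02 to 0.34), was not distinguishable from equality at this depth.

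A few members had too few counts for a statement. DDX60 had 36, 14, 14 and 8 counts in the shRBM39 IP, shRBM39 input, shControl IP and shControl input, and was the member closest to the minimum. DDX12P, a pseudogene related to the DNA helicase gene DDX11 whose reads the 2 may share, had 151, 45, 104 and 37 counts in the same order. The interval of the input ratio included equality for both. DHX58, just under the minimum, had 0, 4, 5 and 4 counts, the germline helicase DDX4 2, 0, 4 and 2, and DDX25 4, 0, 2 and 0. DDX53 had 0 counts in all 4 libraries, which allows a level of up to 0.0664 CPM in the shControl IP and 0.139 CPM in the shControl input, and the fifth name under the minimum was DDX3Y.

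The same contrast in the IP libraries came from the same cultures but from separate libraries. There 50 of 51 members had a higher level in the shRBM39 IP than in the shControl IP, with a median log2 ratio of 0.79, and 19 were listed as higher and 0 as lower, against 6.61% of all features higher and 5.27% lower, and 4.79% and 1.72% of the deeper features. The summed hepatocyte markers ran the other way between the IPs, as given above, and their part was not tested. Of the 13 listed in input, 10 were also listed in the IP contrast. The same overlap was not computed over all features, so whether it is particular to the members cannot be told. The 9 listed in the IPs and not in the inputs were DDX18, DDX21, DDX42, DDX43, DDX60, DHX8, DHX29, DHX36 and DHX57. Among these, DDX60 rests on 36 and 14 counts. With libraries scaled to total counts 12 of the 19 were listed, and DDX42, DDX43, DDX52, DHX8, DHX29, DHX36 and DHX57 were not. DDX23 was highest, at 463 CPM in the shRBM39 IP and 126 CPM in the shControl IP (log2 1.88, 1.83 to 1.92), followed by DDX5 (1.79, 1.76 to 1.82) and DDX24 (1.77, 1.69 to 1.85). DHX9 (1.65) and DDX21 (1.59) had larger ratios in the IPs than in the inputs. DDX39A, DDX51 and DDX54 were the 3 listed in input and not in IP, with IP ratios of 0.36, 0.62 and 0.92. DDX59 was again the lowest, at -0.44 (-0.58 to -0.29).

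Recovery with the RBM39 antibody was moderate for these mRNAs. In shRBM39 cells the median log2 ratio of IP over input was 0.42, from -0.77 to 0.87, and no member reached 2-fold in either direction, where 5.29% of all features were listed as higher and 9.00% as lower, and 3.30% and 5.37% of the deeper features. In shControl cells the median was 0.30, from -0.63 to 1.07, with 2 members listed as higher and 0 as lower, beside 7.70% and 11.3% of all features, and 6.76% and 6.30% of the deeper features. The medians over all features were 0.022 in shRBM39 cells and -0.0052 in shControl cells. The ratio was above 0 in both cultures for 39 members, and its interval lay above 0 in both for 33 and below 0 in both for 2, DDX50 and DDX59. The share of all features that did so in both cultures was not computed, so whether these joint counts are particular to the members cannot be told. In shRBM39 cells alone 86.3% of members and 54.0% of the deeper features were above 0. In shControl cells alone these shares were 78.4% and 53.7%. RBM39 mRNA, for scale, had recovery of 5.999-fold in shRBM39 cells and 2.57-fold in shControl cells.

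To test IP against input, both cultures entered one edgeR quasi-likelihood model with culture as a term, on all 19210 features. By adjusted p (Benjamini-Hochberg, threshold 0.05), 21 of 51 members (41.2%) were higher in IP and 2 lower, beside 19.2% of all features higher and 17.6% lower, and 26.8% and 21.5% of the deeper features. The model has 1 residual degree of freedom, which comes from the difference of recovery between the cultures. With 1 library per group, its p-values do not measure a spread between replicates of a condition. With total-count scaling 13 members were higher, and both lower calls, DDX50 and DDX59, were lost by DESeq2 and without the filter. With fraction as the only term, edgeR called 0 members in either direction, with 1 higher and 0 lower at an unadjusted p under 0.05.

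The 2 members listed as higher in the IP of shControl cells were DDX54 and DHX34. DDX54 had 211 CPM in the shRBM39 IP and 122 in its input, and 112 CPM in the shControl IP and 53.1 in its input. Recovery was 1.73-fold in shRBM39 cells (log2 0.79, 0.73 to 0.85) and 2.10-fold in shControl cells (log2 1.07, 0.98 to 1.17), with an edgeR adjusted p of 0.000169 over both. DHX34 had 32.4 CPM in the shRBM39 IP and 18.8 in its input, and 31.3 CPM in the shControl IP and 15.4 in its input. Its recovery was 1.72-fold in shRBM39 cells (log2 0.78, 0.63 to 0.95) and 2.03-fold in shControl cells (log2 1.02, 0.85 to 1.20), with an edgeR adjusted p of 0.000161. For both mRNAs the IP was above the input in each culture.

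All 5 DEAH box helicases of the spliceosome had recovery above 0 in both cultures, and DHX16, DHX38 and DHX8 passed the edgeR test. DHX16 was recovered 1.83-fold in shRBM39 cells (122 CPM in IP, 66.7 in input) and 1.65-fold in shControl cells (63.1 CPM in IP, 38.2 in input), with an edgeR adjusted p of 0.000377. DHX38 was recovered 1.83-fold and 1.54-fold in the shRBM39 and shControl cells (edgeR adjusted p 0.00198), and DHX8 1.59-fold and 1.36-fold (edgeR adjusted p 0.00676). DHX15, at 1.57-fold and 1.18-fold, missed the threshold (edgeR adjusted p 0.053), as did DHX35 at 1.10-fold and 1.25-fold (edgeR adjusted p 0.25).

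Of the 7 DEAD box helicases of the spliceosome list, DDX17, DDX41 and DDX39B passed. DDX17 was recovered 1.496-fold in shRBM39 cells and 1.78-fold in shControl cells (edgeR adjusted p 0.00403). DDX41 was recovered 1.34-fold and 1.59-fold in the same order, and DDX39B 1.37-fold and 1.48-fold. DDX23, DDX5 and DDX46, the 3 that were higher in the shRBM39 input, did not pass, with pooled log2 ratios of 0.41, 0.35 and 0.29. The list medians were 0.48 in shRBM39 cells and 0.24 in shControl cells for DEAD box members, and 0.66 and 0.45 for DEAH box members.

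**Figure D3:**
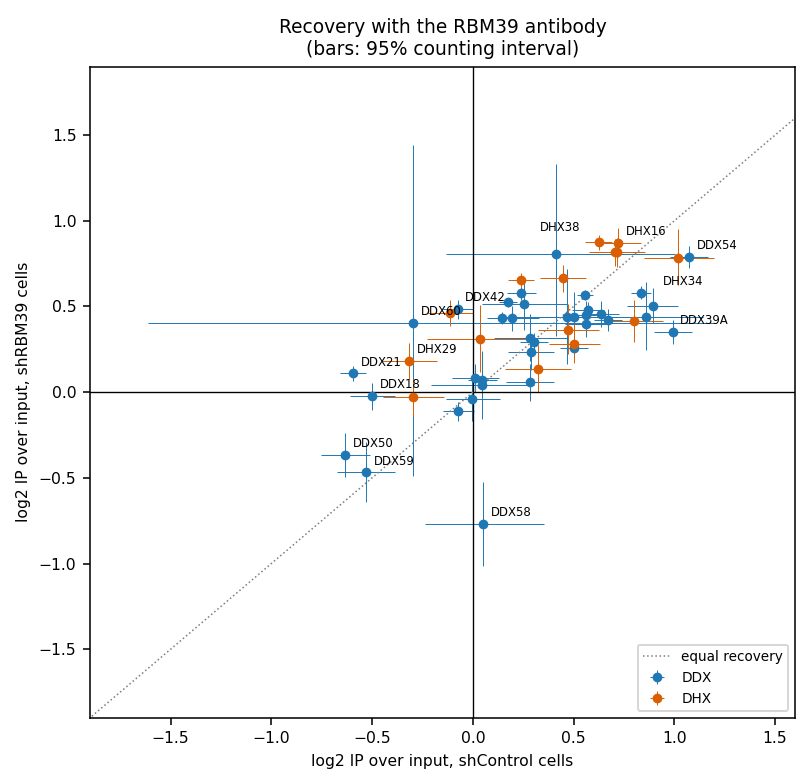
Log2 ratio of IP over input in shControl cells (x axis) and in shRBM39 cells (y axis) for the 51 members, DDX in blue and DHX in orange, with 95% counting intervals; the dotted line marks equal recovery. Most members lie to the upper right of 0, the intervals of DDX50 and DDX59 lie below 0 in both cultures, and DDX58 is the lowest in shRBM39 cells.

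Recovery varied widely within the ribosome biogenesis list, where 7 of 16 were higher in IP and 1 lower. Beside DDX54 these were DHX37 (pooled log2 0.77, edgeR adjusted p 0.000484), DDX56 (0.70, edgeR adjusted p 0.00131), DDX51 (0.64), DDX49 (0.55), DDX27 (0.53) and DHX33 (0.39). DDX50 was lower, with 30.1 CPM in the shRBM39 IP and 38.9 in its input, and 28.2 CPM in the shControl IP and 43.8 in its input (pooled log2 -0.50, edgeR adjusted p 0.0121). DDX10 (-0.11 in shRBM39 cells, -0.072 in shControl cells) and DDX55 (-0.042 and -0.0016) were recovered about as the median feature. DDX21 and DDX18 were below 0 in shControl cells (-0.59 and -0.50) and near 0 in shRBM39 cells (0.11 and -0.024). DDX31 (0.32 and 0.29) and DDX47 (0.23 and 0.29) lay above 0 in shRBM39 and shControl cells and did not pass.

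Outside the spliceosome and ribosome lists, the members that passed as higher, besides DHX34, were DHX30 (pooled log2 0.76, edgeR adjusted p 0.000572), DDX39A (0.67), DHX40 (0.60), DDX3X (0.56), DDX11 (0.48), DDX20 (0.47) and DHX32 (0.42). DDX59 passed as lower (pooled log2 -0.50, edgeR adjusted p 0.0146), with 15.5 CPM in the shRBM39 IP and 21.4 in its input, and 20.9 CPM in the shControl IP and 30.2 in its input. DDX6 was recovered at the level of the median feature in both cultures (0.071 in shRBM39 cells, 0.048 in shControl cells), and so was DDX60L (0.041 and 0.044). DHX36 was below its input in shControl cells (-0.29, -0.45 to -0.14) and level with it in shRBM39 cells (-0.030).

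The change of recovery between the cultures, taken as the log2 ratio in shRBM39 cells minus that in shControl cells, was centred near 0. Its median over members was 0.0095, from -0.82 to 0.70, with 26 of 51 above 0. No member was listed in either direction, where 4.39% of all features were higher and 2.74% lower, and 1.15% and 0.537% of the deeper features. With libraries scaled to total counts the members' median was -0.18, while that of all features was -0.197, and DDX58 was then listed as lower. The counting interval lay above 0 for 16 of the 51 members and below 0 for 14, beside 2778 and 3379 of the 11173 deeper features.

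Among members with at least 200 counts, DDX58 and DDX21 had the largest changes of recovery; DDX60 reached 0.70 on 8 to 36 counts, with an interval that included 0. DDX58 had 6.98 CPM in the shRBM39 IP and 11.9 in its input, and 6.75 CPM in the shControl IP and 6.497 in its input. Only its shRBM39 input stood apart from the other 3 libraries, and the difference was -0.82 (-1.199 to -0.45). DDX39A had a difference of -0.64 (-0.75 to -0.52), with recovery of 1.28-fold in shRBM39 cells and 1.99-fold in shControl cells. DDX51 (-0.42), DDX56 (-0.39) and DHX40 (-0.38) followed at this end.

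At the other end DDX21, a nucleolar helicase, had 323 CPM in the shRBM39 IP and 299.9 in its input, and 108 CPM in the shControl IP and 162 in its input, a difference of 0.70 (0.63 to 0.78). DHX9 had a difference of 0.57 (0.44 to 0.71), DDX42 of 0.56 (0.47 to 0.65) and DHX29 of 0.50 (0.32 to 0.67). With TMM scaling, the shControl IP of these 4 mRNAs was below its input and the shRBM39 IP above its input. For DHX9 the interval in shControl cells reached equality. With libraries scaled to total counts the differences were 0.51, 0.38, 0.37 and 0.30 in the same order. DDX18 followed with 0.48 (0.34 to 0.61), with the shRBM39 IP about level with its input. RBM39 mRNA had a difference of 1.23 on the same scale.

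Set side by side, DDX and DHX members overlapped in all comparisons, and the medians are given as a description with no test. In input, 4 of 15 DHX (26.7%) and 9 of 36 DDX (25%) were listed as higher in shRBM39, with medians of 0.86 and 0.77. In the IP contrast 8 of 15 DHX and 11 of 36 DDX were listed, with medians of 1.12 and 0.70. Recovery had medians of 0.46 for DHX and 0.41 for DDX in shRBM39 cells, and 0.47 for DHX and 0.28 for DDX in shControl cells. The edgeR test called 9 of 15 DHX (60%) and 12 of 36 DDX (33.3%) higher in IP, and 0 DHX and 2 DDX lower. Among the deeper features 26.8% were higher and 21.5% lower. The DDX share was near that background for higher calls and under it for lower calls. The change of recovery had medians of 0.15 for DHX and -0.023 for DDX. With libraries scaled to total counts these 2 medians were -0.044 for DHX and -0.22 for DDX, so that the sign for DHX depends on the scaling. A change of scaling shifts all members alike, so it cannot test the order of the 2 medians.

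**Figure D4:**
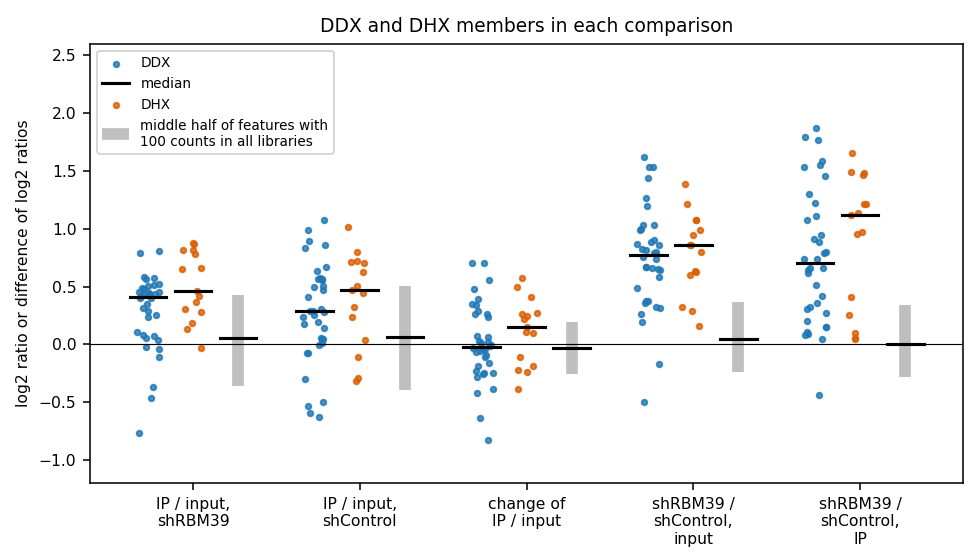
Log2 ratios (for the change of recovery, the difference of log2 ratios) for the 36 DDX members in blue and the 15 DHX members in orange in 5 comparisons, with medians as black lines. The grey bar is the interquartile range of the 11173 features with at least 100 counts in all libraries; the medians of both subfamilies lie above that bar between the cultures, in input and in IP.

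Across the 51 members, recovery in shRBM39 cells and in shControl cells had a Pearson r of 0.66 and a Spearman rho of 0.62, lower than over the 11173 deeper features (0.84 and 0.84). These are correlations across genes, which are not independent, and the 2 ratios share no library. Recovery in shRBM39 cells ran from -4.09 to 4.53 over the deeper features and from -0.77 to 0.87 over members. Only 48 of the 51 members had at least 100 counts in all 4 libraries. The correlations of members and of deeper features are therefore not like for like. Recovery in shControl cells had a Pearson r of -0.40 and a Spearman rho of -0.45 with the log10 length of the annotated gene, and in shRBM39 cells of -0.26 and -0.28, so members with shorter genes had somewhat higher ratios. The input change had almost no relation to gene length (r 0.069, rho 0.095).

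RNA helicases with other names were set beside the members as a description, with no test between the sets. Of 20 listed, 19 were measured, and their input log2 ratio of shRBM39 over shControl had a median of 0.75, with 16 above 0 and 3 listed as higher: SNRNP200, the U5 snRNP helicase (1.83), UPF1, of nonsense-mediated decay (1.44), and HELZ2 (1.39). The translation initiation helicases EIF4A1 and EIF4A2 stood at 0.75 and -0.052, and EIF4A3, of the exon junction complex, at 0.84. All features had 5.10% listed as higher in the shRBM39 input, and the deeper features 3.37%. In recovery in shControl cells 5 of the 19 (26.3%) were listed as higher, EIF4A1, IFIH1, SKIV2L, HELZ2 and MOV10. Of the 51 members 2 were, beside 7.70% of all features and 6.76% of the deeper features. By the edgeR test 10 of the 19 were higher in IP and 1, HELZ (pooled log2 -0.47), was lower, beside 26.8% and 21.5% of the deeper features. The change of recovery had a median of -0.12 over the 19, and IFIH1, a sensor of viral RNA related to DDX58, was the one listed (-1.09). Of all features 2.74% were listed as lower there, and 0.537% of the deeper features.

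Of 22 known or candidate cofactors of these helicases, all were measured, with a median input log2 ratio of 0.52. In the shRBM39 input 4 were listed as higher, beside 5.10% of all features and 3.37% of the deeper features. The 4 were GPKOW, a G-patch partner of DHX16 (1.21), CMTR1, a cap methyltransferase that binds DHX15 (1.17), GPATCH1 (1.09) and EIF4G1 (1.04). EIF4G1 is the scaffold that binds EIF4A. In IP against input 12 of 22 were higher by the edgeR test, led by GPKOW (pooled log2 1.10), and 2 were lower, LSM14A, a partner of DDX6 (-0.87), and RBM17 (-0.57), beside the same 26.8% and 21.5% of the deeper features.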

How the data were processed

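The deposited table gave raw counts per gene symbol for the 4 libraries, whole numbers that the authors had not normalized. The submitters' processing notes name the hg38 build and the tools cutadapt 1.9, HISAT2 2.0.4 and StringTie 1.3.4d without their roles. How reads were assigned to genes, and whether strand was used, is not given in the sources used here. Even numbers made up 71.4% to 75.6% of small counts (3 to 6), so both mates of a pair may have been counted and intervals may be too narrow.

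Each column was matched to its sample through the title, and 0 columns belonged to other samples. After the minimum (10 counts, 2 libraries), TMM factors from edgeR 4.0.16 (R 4.3.3) were 0.904 for the shRBM39 IP, 0.979 for its input, 1.09 for the shControl IP and 1.03 for its input. Log2 ratios used a pseudocount of 0.5 and exact conditional (Clopper-Pearson) 95% intervals, and the difference of 2 log2 ratios used its counting standard error. Reads had no molecular identifiers in the table, so intervals and the limit for a count of 0 (3 counts) cover counting error only. The edgeR quasi-likelihood model had culture and fraction as terms. DESeq2 1.42.0 and other scalings, filters, pseudocounts and folds were alternatives. Simulated counts with 1 spread for all of 18850 features were used to check the model for IP against input. Of 100 features set 2-fold apart it found 82, of 100 set 4-fold apart it found 100, and it made 12 false calls. The simulated cultures did not differ from each other, unlike those of the data, so these numbers do not carry over to the calls of members.

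Members, gene lists and motifs were chosen with earlier results of these data known, and the contrast between the IPs and the count at an unadjusted p were added after seeing the data. Genes were named by rule: RBM39, members listed or passing in a comparison, the 4 highest and 4 lowest of each comparison with at least 200 counts, up to 4 per role list, and members with few counts. Other members, and genes of the lists outside the family, were named after their values were seen. Coordinates are from RefSeq (GRCh38.p14), where 50 members matched by current symbol and 1 (DDX58, now RIGI) by an older one. Another annotated gene overlaps 29 of the 51, and their reads cannot be told apart without the strand setting.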

Additional observations from a re-analysis of the deposited data

Results flagged for a closer look

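For 3 members the ratio of IP over input lay above equality in shRBM39 cells and below it in shControl cells, with both counting intervals excluding equality. The difference, shRBM39 minus shControl, was 0.70 for DDX21, 0.56 for DDX42 and 0.50 for DHX29 on the log2 scale. With 1 library per group the difference was not tested against replicate spread, and in DDX42 the upper bound in shControl cells lay only just below 0. With libraries scaled to total counts the differences were 0.51, 0.37 and 0.30 in the same order. That scaling moved the members' median recovery from 0.42 to 0.30 in shRBM39 cells and from 0.30 to 0.38 in shControl cells. Under TMM, DDX21 stood at 0.11 and the DHX29 lower bound at 0.076 in shRBM39 cells, and DDX42 at -0.076 in shControl cells. Shifts of this size bring DDX21 and DDX42 to equality or across it, so their opposite directions depend on the scaling. DHX29, at 0.18 in shRBM39 cells and -0.31 in shControl cells under TMM, keeps values on opposite sides of 0. Its interval in shRBM39 cells then includes equality.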

How the results depend on the processing

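Each library stands alone, so no result here has a replicate check, and depth limits mainly DDX60 and DDX12P. Input RNA: of the 13 members higher in shRBM39 than in shControl, 8 remained with total-count scaling, where 767 of the 19210 features were higher. At a 1.5-fold threshold 36 members were listed. DDX39A was lost under 5 of 8 alternatives, DDX51 and DDX52 under 2, DHX15 and DHX9 under total counts, and the other 8 under none. The contrast of the IPs gave 19 members higher, and 32 at 1.5-fold. With total counts it gave 12 (median 0.52), where 729 of the 19210 features were higher. Total counts put the median of all features at -0.28 in the IP contrast and -0.197 in the change of recovery, and no filter put it at -0.17 in shControl recovery and 0.16 in the IP contrast. Recovery: at 1.5-fold, 9 members were higher and 1 lower in shRBM39 cells, and 13 and 2 in shControl cells. The change of recovery had 1 higher and 2 lower. All counts at 1.5-fold stand without the share of all features at that threshold, so they are not read as particular to the members. With total counts the change of recovery had 1 member lower, beside 885 of the 19210 features, and a members' median of -0.18. Without the filter, names under the minimum with at least 1 count entered beside the 51 members. There the shRBM39 recovery median was 0.54 and 1 name was lower. DHX58, one of the names added, had 0 counts in the shRBM39 IP and 4 in its input. With at least 100 counts in all 4 libraries 1 member was higher in the shControl IP. The cause was not tested.

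IP against input over both cultures: the 21 members higher became 13 with total counts, and the 2 lower became 0 with no filter and 0 by DESeq2. DESeq2 called 17 members higher, beside 13.5% of all features higher and 10.9% lower. The culture term pairs each IP with its input; the labels give no replicate numbers. With no replicate block (fraction alone), edgeR called 0 higher and 0 lower, with 1 and 0 at an unadjusted p under 0.05, where the difference between cultures enters the spread. Leaving out each library in turn, with fraction alone, also gave 0 to 0 members in both directions, with 0 to 9 higher at an unadjusted p under 0.05; there DDX27 (-0.46), DHX37 (-0.14), DHX38 (-0.11) and DHX8 (-0.13) turned below 0 without the shRBM39 IP, and DDX27 (-0.11) without the shControl input, where fraction is by construction partly confounded with culture.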
